A study of Mus musculus with 2 samples.

Results

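The nuclear genes for the respiratory chain were described in 2 RNA libraries of the mouse erythroid line G1E-ER4. Members were the protein-coding genes whose symbols follow the naming of the subunits of complexes I to V, that is Nduf a, b, c, s or v with a number, Sdha to Sdhd, the Uqcr and Uqcc genes, Cyc1, Cox4 to Cox8 with a letter, and Atp5. This gave 88 members among 43346 genes in the tables, of which 21474 were protein-coding. Complex I had 37 members, complex II 4, complex III 12, complex IV 18 and complex V 17. The names also take in 3 assembly factors of complex III (Uqcc1, Uqcc2 and Uqcc3) and the coupling factor gene Atp5s. They leave out the complex I acyl carrier gene Ndufab1 and the carrier cytochrome c (Cycs).

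G1E-ER4 derives from G1E, an immortalized male mouse line without Gata1, and carries GATA1 joined to the ligand-binding part of the estrogen receptor, so that estradiol (E2) switches the factor on. The labels describe both libraries as erythroid cells with Gata1 restored, differentiated with estradiol, and give neither its dose nor the duration. They formed 1 group, and no uninduced or parental cells were analysed here, so nothing below speaks of a change on induction. The libraries are labelled biological replicates 1 and 2 but cite the same biosample, so the spread between them may be technical. The labels add that the line is postnatal, at 0 day, and it is a cultured line, not primary tissue.

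Poly(A) RNA was sequenced in paired ends, with 68901065 counts in replicate 1 and 51923117 in replicate 2. Gata1, the restored factor, was listed at a TPM (a transcript level corrected for length and depth) of 1498 in replicate 1 and of 2430 in replicate 2, and the reads do not tell the introduced copy from the line's own gene. The erythroid genes Klf1, Tal1, Zfpm1, Gfi1b and Epor lay between 133 and 713 TPM in both libraries. Of 7 markers of other blood or stromal cells, Cd3e, Pecam1 and Adgre1 had no count in either library, and the highest, the platelet gene Pf4, stood at 0.74 and 1.11 TPM.

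The respiratory chain sits in the inner mitochondrial membrane. Complexes I and II pass electrons from NADH and succinate to ubiquinone, complex III passes them on to cytochrome c, complex IV reduces oxygen, and complex V uses the proton gradient to make ATP. Complex II is wholly nuclear-encoded, while the others also contain subunits made inside the mitochondrion. Red cell precursors need active mitochondria for heme and iron-sulfur cluster synthesis and discard them late in maturation.

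Most of the chain was present as RNA. Of the 88 members, 81 reached 1 TPM in both libraries, or 92.0%, against 39% of all protein-coding genes. The median member stood at 98.9 TPM, from 83.4 in replicate 1 to 113 in replicate 2, while the median of 8376 expressed protein-coding genes was 20.5 TPM. In all, 68 members lay above that median. At least 100 TPM in both libraries was reached by 39 members, of 1246 protein-coding genes that did so, and at least 1000 TPM by 6 members, of 103. Members together took 27345 ± 2639 TPM (SD, n = 2), which is 2.92% of all TPM in replicate 1 and 2.55% in replicate 2. In counts they made up 1.37% of replicate 1 (95% exact binomial interval 1.371 to 1.377) and 1.27% of replicate 2 (1.266 to 1.272), intervals that cover counting error only. In bulk RNA a level per cell and the share of cells that carry the RNA cannot be told apart. The 6 members at that highest level were Atp5b, Uqcr11, Cox6a1, Cox5b, Atp5d and Atp5g3, from complexes III, IV and V.

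**Figure D1:**
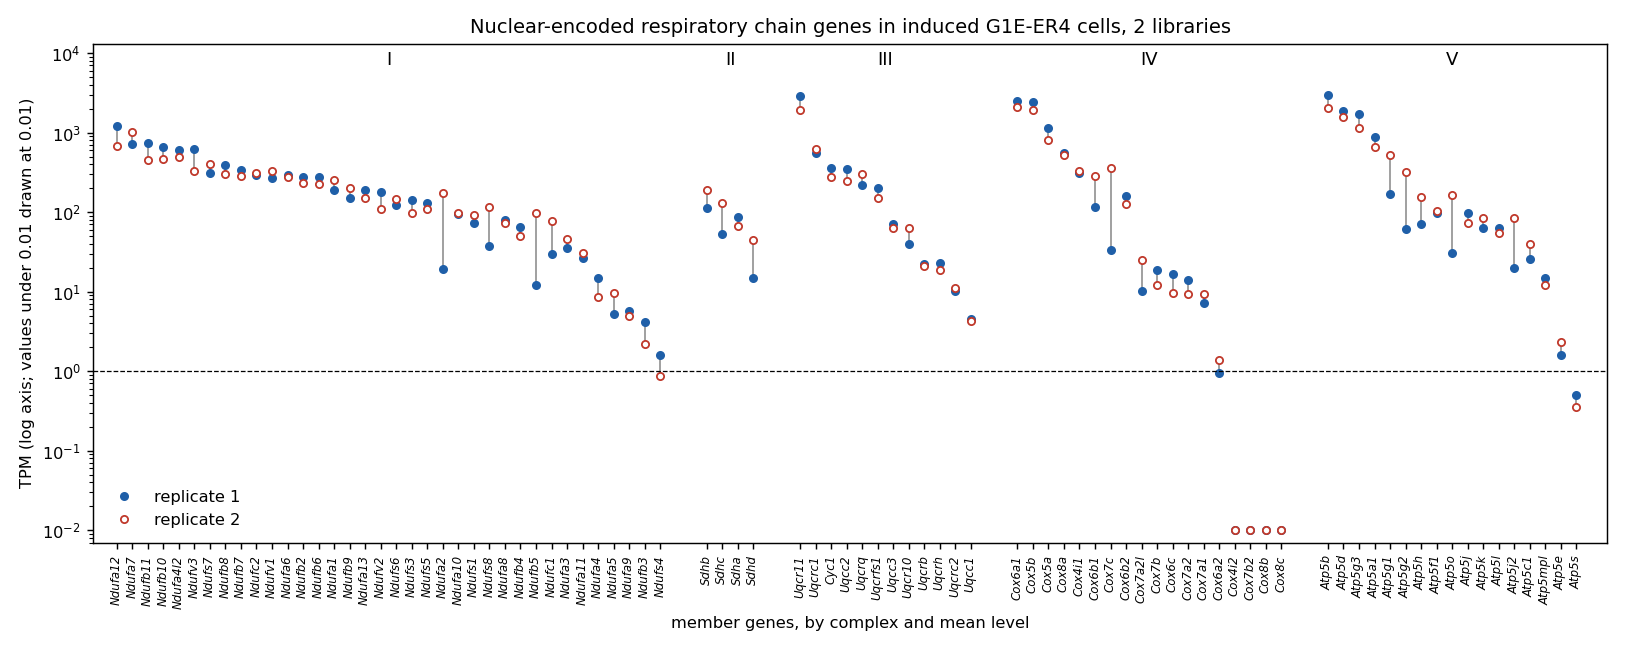
TPM of the members (log axis, 1 not drawn) in replicate 1 (filled) and replicate 2 (open), sorted by mean within complexes I to V, with the grey line joining the libraries and the dashed line at 1 TPM. Within each complex except II the members span more than 100-fold, and Cox4i2, Cox7b2, Cox8b and Cox8c are drawn at the floor because they had no count.

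Subunits that are assembled into the same complex did not have like RNA levels. Among detected members the highest exceeded the lowest by 299 times in complex I, 5.09 times in complex II, 551 times in complex III, 275 times in complex IV and 1279 times in complex V. The median member stood at 133 TPM in complex I, 122 TPM in complex III, 96.1 TPM in complex V and 83.8 TPM in complex II. In complex IV it was 16.6 TPM over all 18 members and 194.9 TPM over the 13 detected. The latter is the mean of Cox7c, a midpoint between 33.6 and 356 TPM. Within each library the middle of the 13 was Cox6b1, at 116 and 285 TPM. Of complexes I, III, V and II, complex I had the highest median in both libraries (143.5 and 144.4 TPM), followed by complex III (136.8 and 107.6 TPM). Those 2 changed order on protein-coding transcript models, at 77.6 and 122 TPM, and with counts over full length, at 118.9 and 130.1 TPM. Complexes V and II exchanged places between the libraries: in replicate 1 the complex V median was 63.5 TPM, in replicate 2 it was 103.8 TPM, and that of complex II went from 69.5 to 98.2 TPM.

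In complex I, the entry point for NADH, 36 of 37 members were detected. Its 7 core subunits, which carry the flavin, the iron-sulfur clusters and the quinone site, had a median of 120 TPM by mean level. The 30 other members, counted as accessory by name and including Ndufa4 and Ndufa4l2, had 152 TPM. The order differed between the libraries: the core median was 143.5 and 110.9 TPM, and the accessory median 139.9 and 163.5 TPM. Of the core genes at the NADH end, Ndufv1, which binds the flavin, stood at 266 and 333 TPM. Ndufv2, beside it, stood at 176 and 111 TPM. Ndufs1, the large iron-sulfur subunit, stood at 72.1 and 91.7 TPM. The order Ndufv1, Ndufv2, Ndufs1 was the same in both libraries over all transcript models. On protein-coding models alone Ndufv1 stood at 38.6 and 66.4 TPM and was the lowest of the 3, below Ndufs1 at 67.0 and 88.2 TPM. In the arm that leads to quinone, Ndufs7 stood at 311 and 402 TPM and Ndufs3 at 144 and 96.8 TPM. Ndufs8 had 38.0 and 115 TPM.

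By mean level the highest accessory members of complex I were Ndufa12, at 1212 and 685 TPM, Ndufa7, at 722 and 1017 TPM, and Ndufb11, a subunit of the membrane arm, at 750 and 447 TPM. The first and second exchange places between the libraries. At the low end, Ndufs4, a subunit whose loss in mice causes a fatal brain disease, had 1.59 and 0.87 TPM from 132 and 54 counts, and was the only complex I member below 1 TPM in a library. Ndufb3, of the membrane arm, had 4.18 and 2.17 TPM, and Ndufa9, a subunit near the quinone site, 5.74 and 4.96 TPM. Ndufs4 shares no 31-base sequence with other annotated genes.

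Ndufb4, a membrane arm subunit, cannot be given a firm level. It was listed at 65.5 and 49.6 TPM, from 3198 and 1836 counts. The processed pseudogene Ndufb4c, an intronless copy on another chromosome, was listed at 1738 and 1619 TPM, from 24195 and 17685 counts. All 390 bases of the pseudogene are found without a mismatch in the Ndufb4 transcript, where they are the coding sequence with its stop codon. The opening 90 coding bases, at chr16:37654270-37654359 (minus strand, GRCm38, within the first exon) and chr15:73809807-73809896 (minus strand), show this, with the start codon in capitals.
Ndufb4: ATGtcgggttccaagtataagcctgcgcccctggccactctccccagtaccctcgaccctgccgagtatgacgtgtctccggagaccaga
Ndufb4c: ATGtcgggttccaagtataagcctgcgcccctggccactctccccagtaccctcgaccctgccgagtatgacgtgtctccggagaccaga
Reads inside this stretch fit both genes equally by sequence, and which of the loci they came from was not tested. The listed TPM of the pair summed to 1803 and 1669, more than any other complex I member in both libraries. That sum adds levels corrected for unlike lengths, 390 bases for the pseudogene and 971 for the Ndufb4 transcript. A level of the pooled counts over a common length was not computed, so the rank of Ndufb4 depends on how the pair is counted.

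Complex II, which is also the succinate dehydrogenase of the citric acid cycle, was detected in full. Sdha, the flavin subunit, stood at 86.7 and 66.1 TPM and Sdhb, the iron-sulfur subunit, at 114 and 187 TPM. The membrane anchors were Sdhc, at 52.3 and 130 TPM, and Sdhd, at 14.9 and 44.3 TPM. Over all transcript models Sdhb was highest and Sdhd lowest in both libraries, while Sdha and Sdhc exchanged places. A retained intron model of 438 bases held 89.7% and 71.6% of the Sdha level, and on protein-coding models Sdha, with 8.76 and 18.6 TPM, ranked below the other members. Sdhaf1, an assembly factor that helps place the iron-sulfur clusters of Sdhb, had 30.8 and 23.7 TPM, and it was the highest of 4 complex II assembly genes. Sdhaf2 had 2.61 and 2.19 TPM, Sdhaf3 0.22 and 1.85 TPM, and Sdhaf4 1.30 and 0.95 TPM.

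In complex III all 12 members were detected. Uqcr11, a small accessory subunit, led with 2918 and 1918 TPM. The catalytic genes followed at a lower level, Cyc1 (cytochrome c1) at 363 and 274 TPM and Uqcrfs1 (the Rieske iron-sulfur protein) at 203 and 152 TPM. The ratio of Cyc1 to Uqcrfs1 was 1.79 in replicate 1 and 1.81 in replicate 2. The core proteins Uqcrc1 and Uqcrc2, which form a pair in the complex, were far apart. Uqcrc1 stood at 561 and 630 TPM and Uqcrc2 at 10.3 and 11.2 TPM, a ratio of 54.5 and 56.1. On protein-coding transcript models alone the ratio was 58.6 and 58.2. Uqcrc2 shares 18.5% of its 31-base sequences with other genes and overlaps Pdzd9 on the opposite strand, and the part of either in its level was not tested. Other accessory genes were Uqcrq at 219 and 305 TPM, Uqcr10 at 39.9 and 63.7 TPM, Uqcrh at 23.1 and 18.9 TPM and Uqcrb at 22.4 and 20.8 TPM. Among the assembly factors, Uqcc2 had 352 and 245 TPM, Uqcc3 70.9 and 63.7 TPM, and Uqcc1 4.54 and 4.24 TPM. Uqcc1 was the lowest gene of complex III in both libraries.

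Complex IV is the oxidase that hands electrons to oxygen, and several of its nuclear subunits come as tissue forms. The highest were Cox6a1 at 2460 and 2076 TPM, Cox5b, a zinc-binding subunit, at 2457 and 1917 TPM, and Cox5a at 1149 and 810 TPM. Cox8a stood at 557 and 523 TPM and Cox4i1 at 309 and 327 TPM. Lower were Cox7b at 18.8 and 12.2 TPM and Cox6c at 16.7 and 9.72 TPM. Of 18 members, 5 were not detected. Cox4i2, Cox7b2, Cox8b and Cox8c had 0 counts, which allows at most 4.35e-06% of the counts of replicate 1 and 5.78e-06% of those of replicate 2, and Cox6a2, the heart and muscle form of subunit 6a, had 0.96 and 1.39 TPM.

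Within the families, the widely expressed form carried nearly all RNA of subunits 4, 6a, 7b and 8. Cox6a1 held 99.9% of its family's TPM in each library, and Cox4i1, Cox7b and Cox8a held 100%. In subunit 7a no form led in both libraries as listed. Cox7a1, the muscle form, had 7.28 and 9.23 TPM, Cox7a2 14.1 and 9.27 TPM, and Cox7a2l, known for joining complexes III and IV in supercomplexes, 10.2 and 25.1 TPM. The Cox7a2l pseudogene Gm6969, which shares an unbroken match of 213 bases with it, was listed at 21.7 and 15.2 TPM. The pair summed to 31.9 and 40.3 TPM, above Cox7a1 and Cox7a2 in both libraries. That sum adds levels corrected for unlike lengths, 342 bases for the pseudogene and 1076 for the Cox7a2l transcript. Subunit 6b was also shared. Cox6b1 had 116 and 285 TPM and Cox6b2, a form known from testis, 161 and 127 TPM, so that Cox6b2 held 58.0% of the family in replicate 1 and 30.8% in replicate 2. Over all models the leading form thus differed between the libraries. On protein-coding models alone Cox6b2 held 40.7% and 19.6%, and Cox6b1 led in both.

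Ndufa4 and Ndufa4l2 showed the widest uneven split among families in which both forms were detected. Ndufa4 was named as a complex I subunit and later placed in complex IV, and Ndufa4l2 is a paralog known as a hypoxia-induced gene that lowers respiration. Ndufa4l2 (ENSMUSG00000040280, chromosome 10, 127514967 to 127517154, plus strand of GRCm38) stood at 604 and 487 TPM and Ndufa4 at 15.0 and 8.58 TPM, a ratio of 40.2 and 56.8. Ndufa4l2 held 97.9% ± 0.490 (SD, n = 2) of the family, and the libraries did not overlap between the 2 genes. Both genes have only 1 listed transcript model, which is protein-coding, so a restriction to coding models could not change this split. Ndufa4l2 overlaps Shmt2 on the opposite strand, and the strand setting of the counting is not known from the labels. Of the hypoxia factors, Hif1a had 20.9 and 15.1 TPM and Epas1 0.01 and 0 TPM.

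**Figure D2:**
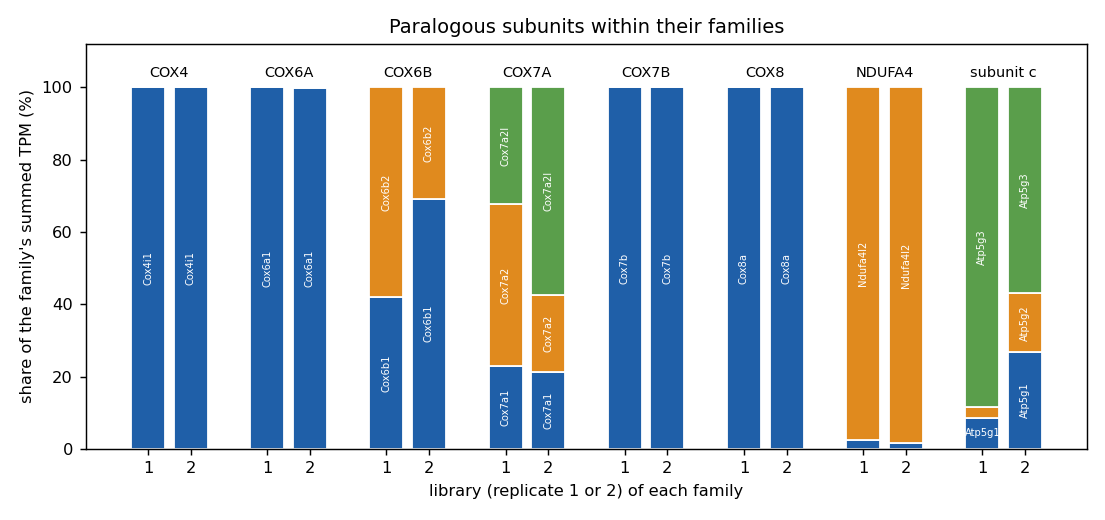
Share of each family's summed TPM (%) held by each paralog, with the left bar of a pair for replicate 1 and the right bar for replicate 2. Ndufa4l2, Cox4i1, Cox6a1, Cox7b and Cox8a fill their bars in both libraries, whereas the shares in COX6B, COX7A and the subunit c family shift between the libraries.

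In complex V, the ATP synthase, the catalytic head was the most abundant part, with 5770 and 4314 TPM over its 5 genes. Atp5b (beta subunit) stood at 2970 and 2045 TPM, Atp5d (delta) at 1882 and 1570 TPM and Atp5a1 (alpha) at 892 and 657 TPM. Atp5c1, the gamma subunit that turns inside the head, had 25.5 and 39.8 TPM. Atp5e (epsilon), which sits beside the delta subunit on the stalk, had 1.62 and 2.30 TPM from 101 and 81 counts, the lowest mean of any detected member. The means of the peripheral stalk genes Atp5f1, Atp5h, Atp5j and Atp5o lay between 85.0 and 112 TPM over all models, although Atp5o went from 30.5 to 162 TPM and Atp5h from 70.5 to 153 TPM. On protein-coding models their means spread from 8.45 TPM for Atp5h and 13.5 TPM for Atp5f1 to 65.1 TPM for Atp5j and 95.5 TPM for Atp5o. Of the small membrane subunits, Atp5k had 63.5 and 85.1 TPM, Atp5l 62.8 and 53.9 TPM, Atp5j2 19.7 and 84.4 TPM and Atp5mpl 15.0 and 12.3 TPM. Atp5s was not detected, with 0.50 and 0.35 TPM.

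Subunit c, which forms the rotating ring, is made as the same mature protein from 3 genes. Atp5g3 stood at 1731 and 1128 TPM, Atp5g1 at 167 and 528 TPM and Atp5g2 at 61.5 and 322 TPM. Over all transcript models their sum hardly moved, from 1960 TPM in replicate 1 to 1978 TPM in replicate 2, whereas the share of Atp5g3 was 88.3% and 57.0%. Atp5g3 was the highest of the 3 in both libraries over all transcript models. On protein-coding models alone it held 76.2% in replicate 1 and 37.5% in replicate 2, where Atp5g1 held 38.8%. There Atp5g3 stood at 732 and 510 TPM while Atp5g1 and Atp5g2 kept the levels above, so on these models the sum was higher in replicate 2.

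The split of subunit c is touched by pseudogenes. Gm10231, a processed pseudogene of Atp5g2, had 0 counts in replicate 1 and 2719 in replicate 2, or 206 TPM, and all of its 441 bases occur without a mismatch in the Atp5g2 transcript. The stretch of 90 bases at chr15:102665766-102665855 (minus strand, GRCm38, within a coding exon of Atp5g2) and its copy at chr17:5816512-5816601 (minus strand) show it, with no capitals because no base differs.
Atp5g2: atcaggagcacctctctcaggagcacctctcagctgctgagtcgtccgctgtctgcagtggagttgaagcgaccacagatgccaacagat
Gm10231: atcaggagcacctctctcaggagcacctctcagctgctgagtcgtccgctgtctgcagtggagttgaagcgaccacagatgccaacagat
A further copy, Gm10175, was listed at 25.0 and 17.3 TPM. For Atp5g1 the pseudogene Gm10039, of which 384 of 411 bases form an unbroken match, was listed at 8.61 and 49.8 TPM. Atp5g2 and Gm10231 summed to 61.5 TPM in the first library and 528 TPM in the second, and the part of the pseudogenes in these differences was not tested.

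Near-copies of the other members were fewer. Over all annotated transcripts, 21 members shared no 31-base sequence with another gene, the median member shared 4.26% and 11 shared at least 20%. The highest share, 49.6%, was that of Atp5o with a second gene model of the same name that the deposited tables do not list. Across 81 detected members the share did not follow the level (Spearman 0.03, a description over genes, which are not independent). The Cox7c copy Gm12338, identical over its 192 bases, stood at 29.1 and 3.07 TPM, and summed with Cox7c to 62.7 and 359 TPM. In addition, 29 members overlap a gene on the opposite strand, and without stated strand use such reads cannot be told apart.

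Part of the member signal lay on transcript models that do not encode the full protein. For 14 of 84 members with any count the leading model, that of the largest share of the gene's TPM, was not protein-coding: it was a retained intron model in 8, a processed transcript in 4 and a model for nonsense-mediated decay in 2. Among detected members this was 17.3%, close to the 19.7% of expressed protein-coding genes. It concerned some of the highest members. Atp5b, the most abundant member, had 93.7% and 88.5% of its TPM on a processed transcript of 343 bases, and its coding model stood at 185 and 233 TPM. Ndufa12, the highest complex I member, had 96.9% and 97.3% on a retained intron model of 428 bases, and its coding model stood at 38.2 and 18.8 TPM. Ndufb10 had 97.6% and 95.8% on a retained intron model. In replicate 1 these models also held most of the counts, 30876 of 50553 for Atp5b, 19038 of 19987 for Ndufa12 and 25893 of 26412 for Ndufb10. In replicate 2 this held for Ndufa12 (8412 of 8774) and Ndufb10 (13750 of 14184). For Atp5b the model then had 15931 of 34555 counts, fewer than the 18540 of the coding model. Whether the reads came from these models or from the coding transcripts was not tested.

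On protein-coding models alone, members kept 73.9% of their TPM in replicate 1 and 79.8% in replicate 2, and 80.8% and 85.2% of their counts. Detection then held for 79 members. Levels of Atp5b and Atp5a1 came closer: over all models Atp5b exceeded Atp5a1 by 3.33 and 3.11 times. On coding models the ratio was 1.46 and 0.928, so that Atp5b was below Atp5a1 in replicate 2. In 12 members under 50% of the TPM lay on coding models in both libraries. The leading model differed between the libraries in 5 members, Atp5e, Atp5g2, Cox6b2, Ndufb6 and Ndufv1. Of 2 genes already low, Uqcc1 had most of its signal on other models in both libraries, and Atp5e in replicate 1 only.

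**Figure D3:**
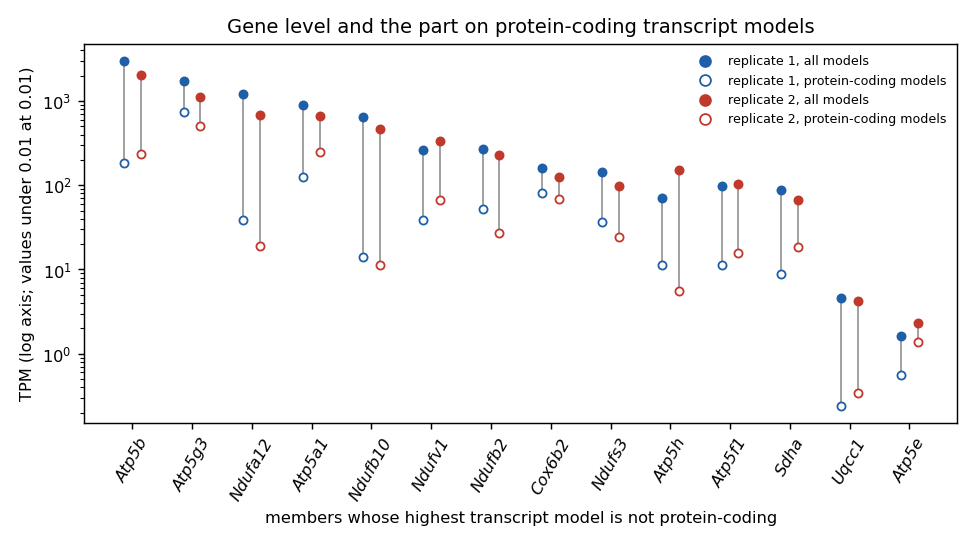
TPM (log axis) of the 14 members whose leading transcript model is not protein-coding, with filled points for the whole gene and open points for its protein-coding models, blue for replicate 1 and red for replicate 2. The gap is widest for Ndufb10 and Ndufa12, and Atp5b moves from 2970 and 2045 TPM to 185 and 233 TPM.

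The libraries were then compared with each other, member by member, with an exact binomial test on scaled counts adjusted over 10863 genes (Benjamini-Hochberg). The test sets counting error alone against the difference, so it compares these libraries and says nothing of a condition. Of 84 members tested, 70 differed (83.3%), against 69.1% of all genes tested, with 39 higher in replicate 2 and 31 in replicate 1, and among all genes 3769 and 3733. The split of members moved with the setting, to 37 and 38 when scaled by library totals and to 25 and 5 once a spread of 0.1 (coefficient of variation) joined the counting error. The median member differed by 0.04 on the log2 scale (SD 0.93 over members), and the median gene by -0.01 (SD 0.73). In complex II all 4 members were higher in replicate 2 in scaled counts, with a median log2 ratio of 1.26. In TPM, Sdha was instead lower in replicate 2, at 66.1 TPM against 86.7 TPM in replicate 1. The median log2 ratios of complexes I, III and IV lay within 0.04 of 0.

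Large differences went 1 way. At least 2-fold higher in replicate 2 were 16 members (19.0%), against 7.46% of all genes, and none was 2-fold higher in replicate 1, against 1.68%. They included Ndufa2, Ndufa5, Ndufb5, Ndufc1 and Ndufs8 of complex I, Sdhc and Sdhd of complex II, Cox6b1, Cox7a2l and Cox7c of complex IV, and Atp5g1, Atp5g2, Atp5h, Atp5j2 and Atp5o of complex V. No complex III member was among them. The largest adjusted p of the 16 by the exact binomial test was 6.3e-22, for Ndufa5. Cox7c, a small subunit of complex IV, went from 33.6 TPM in replicate 1 up to 356 TPM in replicate 2, a 12.04-fold difference of scaled counts. Ndufa2, an accessory subunit of complex I, stood at 19.2 and 175 TPM, 10.03-fold apart. Ndufb5 stood at 12.1 and 96.7 TPM, 6.70-fold apart. In contrast Ndufa10, at 93.8 and 98.2 TPM, and Ndufa6, at 295 and 276 TPM, were within 1.2-fold between the libraries. Means of the 16 members are therefore midpoints between unlike values. Ndufa5 fell below 2-fold with folds taken from TPM.

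The 16 were chosen on this ratio, so their levels and features are given as a description. Their median was 32.1 TPM against 147 TPM for the other 68 in replicate 1, and 123 TPM against 136 TPM in replicate 2. Their median length in replicate 1 was 677 bases against 753, and their median GC content 50.03% against 52.2%. They shared a median of 8.64% of 31-base sequences with other genes against 4.26%, and the leading model was not protein-coding in 1 of them against 13 of the other 68. Ndufs8 and Sdhd share no such sequence with another gene. Ndufa2, Ndufs8, Sdhd and Cox6b1 have 1 transcript model each, and Cox7a2l had its whole level on 1 model in both libraries. The listed length of each of these was thus the same in both. The part that near-copies, transcript models, length, composition or library preparation had in the differences of the 16 was not tested.

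**Figure D4:**
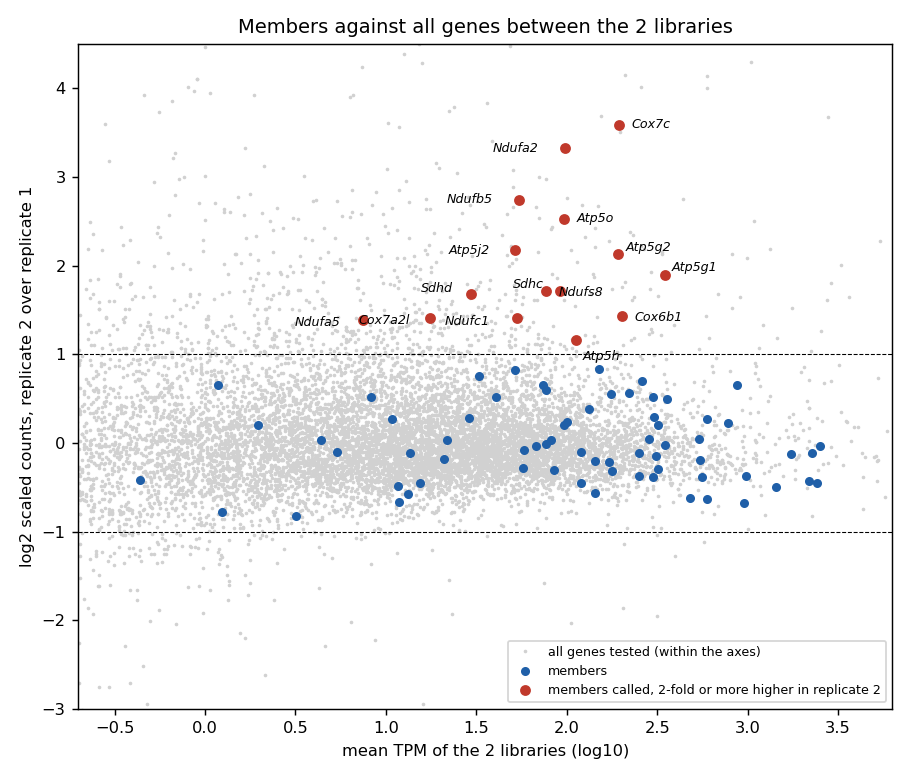
Log2 ratio of scaled counts, replicate 2 over replicate 1, against the mean TPM (log10) for the genes tested (grey, those outside the axes not drawn), members (blue) and members called and at least 2-fold higher in replicate 2 (red, named; 1 not drawn), with dashed lines at 2-fold. Red points lie only above the upper line, up to Cox7c at 12.04-fold, and no member lies below the lower line.

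Genes that build and feed the chain were read beside the members. Of 21 matched assembly genes for complex IV, 19 were detected, led by the copper chaperone Cox17 at 509 and 315 TPM, with Coa6 at 125 and 77.0 TPM and Cox14 at 106 and 118 TPM. Pet117 had 28.6 TPM in replicate 1 and 0 in replicate 2, and Coa7 0.79 and 10.5 TPM. For complex I, 14 of 15 matched assembly genes were detected at a median of 18.5 TPM, led by Ndufaf8 at 131 and 95.6 TPM, with Ndufaf7 at 0.78 and 1.10 TPM. All 4 complex V assembly genes were detected, with Fmc1 highest at 265 and 173 TPM. Of 6 complex III assembly genes, Lyrm7, which helps insert the Rieske protein, was under 1 TPM at 0.12 and 0.30.

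Between complexes III and IV, electrons are carried by cytochrome c. Its gene Cycs had 3.71 and 6.54 TPM, under all 12 complex III members in replicate 1 and under all but Uqcc1 in replicate 2. Near-copies were searched for members only, so any part of them in the Cycs level was not tested. The testis form Cyct had 0.07 and 0 TPM. Of the ubiquinone synthesis genes, Coq4 had 220 and 174 TPM and Coq9 235 and 133 TPM. In the citric acid cycle, 17 of 18 genes were detected, with Mdh2 highest at 532 and 687 TPM, followed by Dlst at 216 and 168 TPM, while the testis gene Pdha2 had no count.

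The subunits encoded by mitochondrial DNA summed to 8168 and 4005 TPM over 13 genes, and the nuclear members to 29210 and 25479 TPM. The highest were mt-Atp8 at 3171 and 1383 TPM, mt-Cytb at 1626 and 860 TPM and mt-Nd1 at 874 and 610 TPM. Poly(A) selection and nuclear copies of mitochondrial DNA can both touch these levels, and mt-Co2, at 10.5 and 0 TPM, and mt-Co3, at 0.29 and 8.22 TPM, were near 0 in a library where mt-Co1 stood at 449 and 214 TPM.

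Regulators of mitochondrial genes were present unevenly. Yy1 was highest at 139 and 107 TPM, followed by Polrmt, the mitochondrial RNA polymerase, at 53.3 and 54.0 TPM and the coactivator gene Pprc1 at 41.8 and 57.7 TPM. Nrf1 had 10.7 and 9.61 TPM and Gabpa 4.75 and 3.49 TPM. Ppargc1a, the coactivator known from muscle and brown fat, had 0 counts, as had Esrrb and Esrrg, whereas its paralog Ppargc1b had 21.4 and 25.4 TPM. Tfb1m was under 1 TPM at 0.78 and 0.28, as was Epas1.

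Binding sequences of NRF1, the ETS factor GABPA and YY1 are known from promoters of respiratory genes, and their core letters were searched on both strands of RefSeq promoters (GRCm38.p6, 250 bases before to 50 after the start). Of 88 members 71 had an entry. The NRF1 core GCGCATGC was found in 10 of them (14.1%), against 3.05% of 27025 genes with a promoter of this length and 7.10% of the 6833 expressed protein-coding genes that have one. The YY1 core AAGATGGC was found in 11 (15.5%), against 3.19% and 6.59%. The ETS core CCGGAAGT was found in 5 (7.04%), against 4.31% and 11.7%, so that the last share was below that of expressed genes. These member shares include undetected members. Of the 67 detected members with an entry, the NRF1 and YY1 cores were each found in 10 (14.9%) and the ETS core in 5 (7.46%). Any of the 3 cores was present in 25 members. The member of the highest level with an NRF1 core before or at the start is shown for each complex, with all motif cores in capitals, 5′ to 3′ on the gene's strand.
Ndufa6: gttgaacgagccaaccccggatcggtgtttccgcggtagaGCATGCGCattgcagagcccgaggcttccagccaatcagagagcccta
Sdhb: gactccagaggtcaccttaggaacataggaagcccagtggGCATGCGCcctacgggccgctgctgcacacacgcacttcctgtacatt
Uqcr11: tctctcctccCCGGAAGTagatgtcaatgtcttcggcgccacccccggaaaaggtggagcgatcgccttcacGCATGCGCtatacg
Cox6a1: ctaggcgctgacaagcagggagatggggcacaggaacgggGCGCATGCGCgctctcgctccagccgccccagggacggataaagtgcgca
Atp5g2: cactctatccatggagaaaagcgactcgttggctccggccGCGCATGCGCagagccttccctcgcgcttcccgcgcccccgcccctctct
They lie at chr15:82354327-82354414 (minus strand), chr4:140961177-140961264 (plus), chr10:80406812-80406897 (minus), chr5:115349071-115349160 (minus) and chr15:102671040-102671129 (minus). Uqcr11 alone of the 25 holds both an ETS and an NRF1 core, and in Cox6a1 and Atp5g2 the NRF1 core overlaps itself on the opposite strand. The same core was present in Ndufa8, Ndufa11, Uqcrc1, Atp5k and Atp5l, whose means ran from 28.6 to 595 TPM. All members with the NRF1 core thus lay above the median of expressed genes, 20.5 TPM, as did 68 of all 88 members. A match of letters is a description of the window and not of binding.

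Levels went with base composition about as in other genes. Over the 81 detected members the Spearman correlation of transcript GC content with TPM was 0.36, and over 8364 expressed protein-coding genes 0.34. Cut into 3 equal parts by GC, the members of the highest part, from 54.4% to 63.3%, had a median of 311 TPM, those in the middle part 74.3 TPM and those in the lowest 101 TPM. Expressed genes split at the same inner bounds had medians of 43.6, 22.1 and 11.2 TPM. In each part members were thus above expressed genes in median. These correlations share the same libraries and are given without a test.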

How the data were processed

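Levels of 88 genes were read in 2 poly(A) RNA libraries that form 1 group. Per the file headers, the authors' gene and transcript tables hold expected counts (estimated reads), TPM, FPKM and the transcript's percent of its gene. The deposited readme files name mm10 and GENCODE M4, and neither they nor the labels name an aligner, a quantifier or the strand setting. Deposited FPKM, posterior mean TPM and expected counts over full length served as alternatives. Symbols, biotypes and coordinates came from GENCODE M21 by gene identifier.

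A gene was detected at 1 TPM or more in both libraries. Expected counts were rounded, scaled by TMM (edgeR 4.0.16, R 4.3.3), filtered at a mean of 10 counts and compared by a two-sided exact binomial test (scipy 1.17.1) with Benjamini-Hochberg adjustment, called under 0.05. The script was tested on simulated data. Near-copies were genes sharing 31-base sequences on either strand; a pair was listed from a share of 5% and 50 counts summed over both libraries.

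Genes named were Gata1, core subunits, the 3 highest and 3 lowest of each complex, paralogs, members under 1 TPM, 2-fold apart or led by a model that is not protein-coding or holds under 50%, and of other lists the 3 highest and those under 1 TPM; other members may be named too. Members and lists were chosen with earlier results of these data known. Alternatives were other scalings, filters and units, leaving out a library, and, chosen after seeing the data, protein-coding transcript models only. Members on chromosome 18 have no printed sequence. Some genes are not reported here.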

Additional observations from a re-analysis of the deposited data

How the results depend on the processing

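No paired analysis was possible because both libraries belong to 1 group. Levels and shares were held against the spread of the libraries and counts of genes against 1.5 times: 97 recomputed values stayed within these bounds and 17 went beyond. With protein-coding transcript models only, the summed level was 20960 TPM (27345 over all models), and medians were 77.6 TPM in complex I, 60.4 TPM in complex II, 14.7 TPM in complex IV and 65.1 TPM in complex V. The complex I value, a median of mean levels (133 TPM), was 130.9 TPM from posterior means and 118.9 TPM from counts over full length. It was 136.2 TPM without globin and mitochondrial genes and 138.2 TPM over detected members. Its bound was the SD of the library medians, 0.608 TPM. These medians, 143.5 and 144.4 TPM, both lay above 133 TPM, so the bound is not its spread. The complex IV bound, 0.605 TPM around 16.6 TPM, has the same limit, with library medians of 17.8 and 18.6 TPM. The complex IV median was 194.9 TPM over detected members, which is the mean of Cox7c at 33.6 and 356 TPM. With either library left out, medians ran from 143.5 to 144.4 TPM in complex I, from 17.8 to 18.6 TPM in complex IV and from 63.5 to 103.8 TPM in complex V. With a coefficient of variation of 0.1 added to counting error, 2007 of 10863 genes (7502 without it) and 30 members (70 without it) differed between the libraries, and all 16 members that were 2-fold apart stayed. The cause was not tested, apart from the narrower sets of models, members or libraries used. With 2 libraries from 1 biosample, spread between cultures cannot be told from technical spread, and a low level with few counts, as in Atp5e or Ndufs4, has a wide error.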
